A study of Mus musculus with 6 samples.

Results

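The mRNA decay machinery was followed here through 49 genes: the deadenylases that shorten the poly(A) tail, the decapping enzymes, the cytoplasmic Lsm ring, the RNA exosome and the factors of nonsense-mediated decay. They were found by their GENCODE M21 symbols among the 49315 genes counted, all 49 were present, and all 49 passed the low-count filter that left 13704 genes for the test. RNA was sequenced from immortalized mouse keratinocytes of skin origin (MK cells). The 3A group was the line MK-546-ha3A, which lacks the mouse α3 integrin subunit and was reconstituted with human α3. The Control group was the MK-546 line, which has no α3. The labels do not state whether either line is a single clone or which promoter drives the human α3. Both groups therefore carry the α3 deletion, neither was treated, and each is represented by 1 cell line with 3 libraries. Cells of both lines were kept at 33 °C in 8% CO2 in low-calcium medium on collagen-coated dishes. Nothing in the labels says whether the 3 libraries came from separate cultures, so the p-values measure only the spread between these libraries, which may be technical. The study set the integrin α3β1 beside Cstf3, a subunit of the cleavage stimulation factor that acts when a pre-mRNA is cut and polyadenylated.

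Decay of most mRNAs begins with removal of the poly(A) tail, by the PAN2-PAN3 pair and then by the multi-subunit CCR4-NOT complex. The RNA is afterwards either decapped by DCP2 and digested from the 5′ end by XRN1, with the Lsm1-7 ring bound at the shortened 3′ end, or digested from the 3′ end by the exosome. Nonsense-mediated decay uses UPF1 and its partners to remove RNAs whose translation ends too early. In keratinocytes many short-lived mRNAs for cytokines and growth regulators are removed through AU-rich elements that recruit these enzymes.

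Total counts per library were between 34177002 and 36245240 in 3A and between 25634204 and 30919348 in Control. Control 1 stood apart: over all tested genes its log2 CPM (read counts scaled to a common library size by TMM) correlated with those of Control 2 and Control 3 at r = 0.957 and 0.953, whereas Control 2 and Control 3 correlated at 0.988 and Control 1 and 3A 2 at 0.955. Mitochondrial mRNAs took 1.58%, 1.23% and 1.30% of counts in 3A 1, 2 and 3, against 1.16%, 4.16% and 4.69% in Control 1, 2 and 3. For the decay genes and the lists around them, counts of calls are therefore given with and without Control 1. The basal keratinocyte markers were present, 11 of 11, with a summed level between 8253 and 10530 CPM in 3A and between 10810 and 13230 CPM in Control. Of these, 3 (27.3%) were called lower in 3A (Krt15, Trp63 and Lama3), beside 7.39% of all tested genes. For 7 (63.6%) every 3A library lay below every Control library, beside 17.6% of all tested genes. The marker counts were not taken without Control 1. The summed markers of 4 other cell types reached at most 14.6 CPM in 3A and 23.1 CPM in Control, both for immune cells, and Lum, Dct, Tyr and Adgre1 had 0 counts in every library. Counts on Itga3, the α3 gene, were 80.4, 70.2 and 57.5 CPM in 3A and 31.9, 41.7 and 45.1 CPM in Control. They check neither the deletion nor the transgene, because reads of the human transgene may have been counted there and reads outside the deleted part would remain. Cstf3 had 47.3, 57.6 and 61.1 CPM in 3A and 38.5, 22.0 and 21.5 CPM in Control, a log2 fold change of 1.01 ± 0.26 (SE) that passed the test (edgeR quasi-likelihood, Benjamini-Hochberg adjusted p = 0.0420).

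Of the 49 decay genes, 1 was higher in 3A than in Control (Cnot6, a catalytic deadenylase) and 3 were lower (Btg1 and Tob2, which bring CCR4-NOT to mRNAs, and Cnot4, a ubiquitin ligase), and the other 45 did not pass the test. A gene was called at a Benjamini-Hochberg adjusted p under 0.05 over all tested genes. The 4 calls are 8.16% of the decay genes, whereas 14.9% of all tested genes were called (7.52% higher and 7.39% lower). Among the 4428 tested genes within the central range of the members' mean level, 28.6 to 113 CPM, 10.5% were called. The decay genes' log2 fold changes, 3A over Control, ran between -1.04 (Lsm7) and 0.93 (Cnot6), with a median of -0.08 beside -0.02 over all tested genes. Per kilobase of exon the mean level of a decay gene over the 6 libraries lay between 0.313 RPKM (Dcp1b) and 108 RPKM (Lsm4), with a median of 13.3 RPKM. The size of the log2 fold change was under 0.5 for 30 of the 49 (61.2%), beside 56.2% of all tested genes. In 13 members (26.5%) the 3 libraries of 3A did not overlap the 3 of Control, 9 above and 4 below, where 36.1% of all tested genes did not overlap (18.6% above and 17.6% below). In bulk samples such as these, fewer cells of a type and less RNA per cell cannot be told apart.

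**Figure D1:**
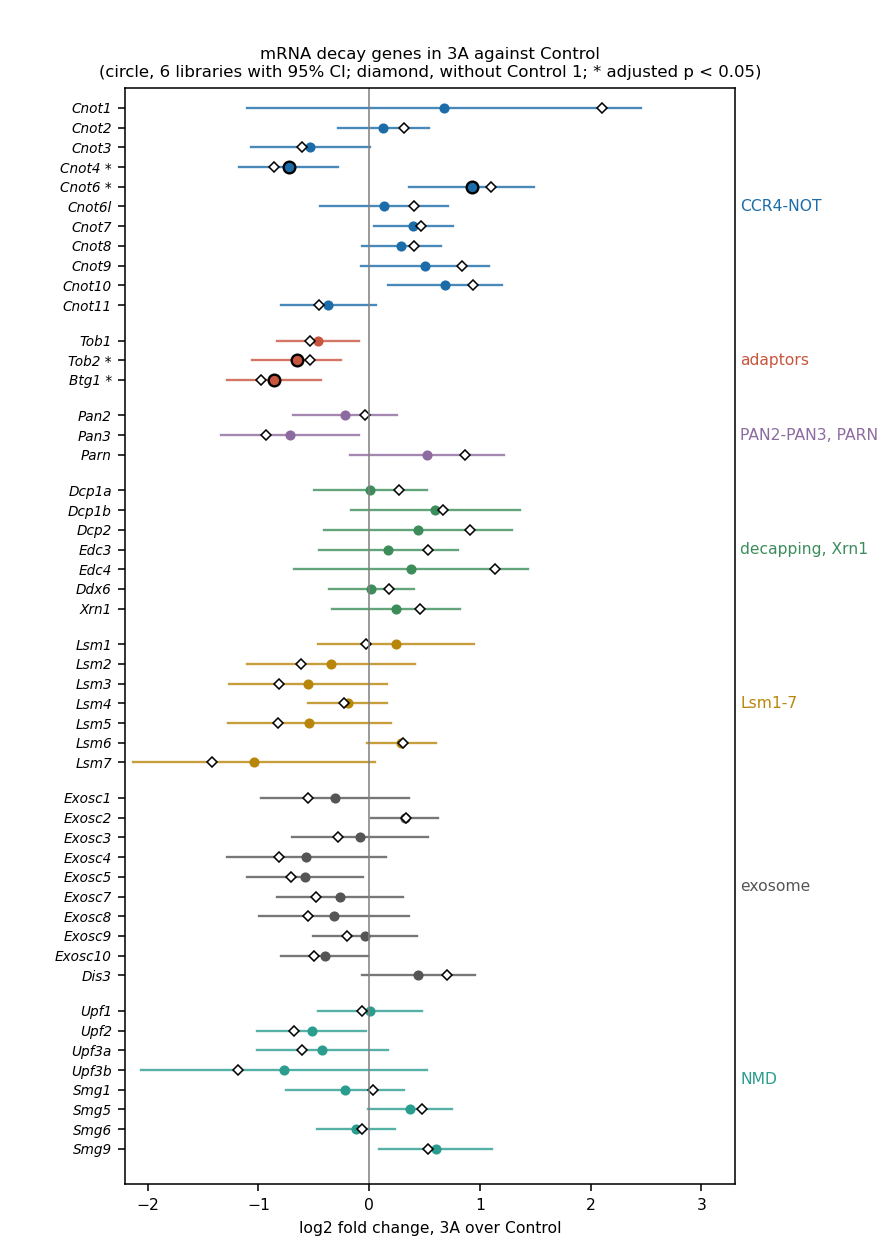
Log2 fold change of each of the 49 decay genes, 3A over Control, grouped by role; circles are the estimate from 6 libraries with its 95% confidence interval, diamonds the estimate without Control 1, and stars mark the 4 called genes. The estimates run between -1.04 for Lsm7 and 0.93 for Cnot6, and the diamonds of the Lsm and exosome genes lie mostly below their circles.

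The small set of calls depended on which libraries were compared. Without Control 1, 12 of the decay genes were higher in 3A and 20 lower (65.3% called), in a comparison in which 52.0% of 14300 tested genes were called (26.2% higher and 25.8% lower). The 12 were Cnot1, Cnot6, Cnot7, Cnot8, Cnot9, Cnot10, Parn, Dcp2, Edc3, Edc4, Dis3 and Smg5. Those lower were Cnot3, Cnot4, Cnot11, Tob1, Tob2, Btg1, Pan3, Lsm2, Lsm3, Lsm5, Lsm7, Exosc1, Exosc4, Exosc5, Exosc7, Exosc8, Exosc10, Upf2, Upf3a and Upf3b. Without Control 2, Control 3, 3A 2 or 3A 3 in turn, 0 decay genes were called by edgeR, with 4, 5, 6 and 5 members at an unadjusted p under 0.05. In the same fits 5.99%, 6.98%, 4.72% and 4.77% of all tested genes were called. Without 3A 1, Cnot6 was called higher and Btg1 lower, where 9.18% of all tested genes were called. The 4 calls of the full comparison all held their direction when any 1 library was left out. As their groups did not overlap, this could hardly have come out otherwise.

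All 3 adaptor genes, Btg1, Tob1 and Tob2, had every 3A library below every Control library, as did 17.6% of all tested genes. Btg1 and Tob2 passed the test, where 7.39% of all tested genes were called lower. BTG/Tob proteins bind the deadenylases CNOT7 and CNOT8, and the Tob proteins also bind the poly(A)-binding protein, which places CCR4-NOT on the tail. Members of the family are known to restrain proliferation. Btg1 (chr10:96617006-96622809, plus strand, GRCm38) had 149, 122 and 119 CPM in the 3A libraries, against 192, 252 and 262 CPM in the Control libraries. Control 1 was the Control library closest to 3A. Its log2 fold change was -0.86 ± 0.18 (SE; 95% confidence interval -1.28 to -0.43), with an adjusted p of 0.0221 by edgeR. Leaving out 1 library at a time gave log2 fold changes between -0.97 and -0.77, with an adjusted p of 0.00161 without Control 1 and between 0.0418 and 0.128 without another library.

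Tob2 (chr15:81848272-81858796, minus strand) had 20.3, 19.3 and 16.0 CPM in 3A and 33.3, 28.4 and 25.8 CPM in Control. The groups did not overlap, and Control 1 was the highest library here, whereas for Btg1 it was the lowest of Control. The log2 fold change was -0.65 ± 0.17 (SE), adjusted p = 0.0441. Its adjusted p reached 0.0199 once Control 1 was left out, and lay between 0.0739 and 0.181 when any of the other libraries was. Tob2 overlaps the annotated gene Gm49476, and with the strand setting of the counting unknown their reads cannot be told apart. Tob1, its paralog, had 76.4, 77.1 and 62.7 CPM in 3A and 87.1, 105 and 105 CPM in Control, again without overlap. Its log2 fold change of -0.46 (95% interval -0.83 to -0.09) did not pass the test (adjusted p = 0.0914). Per kilobase of exon the 3 adaptors differed in level, at 24.6, 31.5 and 2.78 RPKM in 3A and 44.6, 43.4 and 4.38 RPKM in Control for Btg1, Tob1 and Tob2. Without Control 1 all 3 were called lower, where 25.8% of all tested genes were.

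The promoters of these 3 genes and of the 2 called CCR4-NOT subunits are shown because 4 of these genes, Btg1, Tob2, Cnot6 and Cnot4, were the ones called. Tob1, which was not called, is shown as the paralog of Tob2. Each run is 300 bases on the gene's own strand, 250 before and 50 after the RefSeq start (RefSeq, GRCm38.p6), with matches to the searched motifs in capitals.
Btg1, chr10:96616751-96617050, plus strand: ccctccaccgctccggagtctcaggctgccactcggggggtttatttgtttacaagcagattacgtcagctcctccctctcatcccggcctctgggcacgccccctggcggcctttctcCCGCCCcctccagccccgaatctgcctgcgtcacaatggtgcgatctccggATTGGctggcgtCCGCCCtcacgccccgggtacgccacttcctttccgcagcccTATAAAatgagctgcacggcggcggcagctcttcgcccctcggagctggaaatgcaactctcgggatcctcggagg
Tob1, chr11:94211204-94211503, plus strand: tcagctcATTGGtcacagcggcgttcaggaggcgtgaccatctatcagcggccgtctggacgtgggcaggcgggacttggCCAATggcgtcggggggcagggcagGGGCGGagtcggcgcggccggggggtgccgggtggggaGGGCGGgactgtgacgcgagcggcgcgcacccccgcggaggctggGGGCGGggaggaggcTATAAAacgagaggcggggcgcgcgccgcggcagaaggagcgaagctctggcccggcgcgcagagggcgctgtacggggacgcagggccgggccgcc
Tob2, chr15:81858277-81858576, minus strand: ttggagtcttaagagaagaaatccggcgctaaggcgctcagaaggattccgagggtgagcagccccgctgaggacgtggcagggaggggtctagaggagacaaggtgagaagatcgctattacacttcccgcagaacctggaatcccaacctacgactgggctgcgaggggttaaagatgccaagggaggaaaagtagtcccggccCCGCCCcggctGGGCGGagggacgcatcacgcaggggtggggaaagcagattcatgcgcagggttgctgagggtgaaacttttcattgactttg
Cnot6, chr11:49712673-49712972, minus strand: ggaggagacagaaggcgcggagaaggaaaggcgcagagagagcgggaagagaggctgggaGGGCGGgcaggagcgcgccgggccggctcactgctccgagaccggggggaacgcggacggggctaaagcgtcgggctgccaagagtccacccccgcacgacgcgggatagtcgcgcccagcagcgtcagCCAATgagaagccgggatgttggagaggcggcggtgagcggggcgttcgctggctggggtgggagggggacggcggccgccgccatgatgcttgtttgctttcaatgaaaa
Cnot4, chr6:35133688-35133987, minus strand: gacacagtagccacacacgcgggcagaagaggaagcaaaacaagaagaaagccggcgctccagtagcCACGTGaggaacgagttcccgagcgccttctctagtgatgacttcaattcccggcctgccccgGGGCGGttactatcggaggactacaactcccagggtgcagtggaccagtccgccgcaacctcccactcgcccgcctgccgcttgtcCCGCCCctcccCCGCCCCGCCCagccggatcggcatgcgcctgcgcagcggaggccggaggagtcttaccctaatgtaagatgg

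Searches on both strands used 6 motifs: the E-box CACGTG, the AP-1 site TGANTCA, the cAMP response element TGACGTCA, the CCAAT box CCAAT, the GC box GGGCGG and the TATA box TATAAA. All 5 promoters held a GC box, with 2, 3, 2, 1 and 4 matches in Btg1, Tob1, Tob2, Cnot6 and Cnot4, and in Cnot4 a pair of them overlapped. The GC box was found in 35.7% of all 32851 promoters of this length and in 33 of the 41 decay genes with a promoter in the table (80.5%). The set of all promoters was neither limited to tested genes nor matched for GC content, and this difference was not tested. A TATA box stood in Btg1 and Tob1, 1 match each, and in 13.6% of all promoters. The CCAAT box was matched once in Btg1, 2 times in Tob1 and once in Cnot6, and in 37.4% of all promoters and 16 of the 41 decay genes (39%). Cnot4 alone of the 5 held an E-box, a motif of 7.15% of all promoters. AP-1 and cAMP response element letters were in none of the 5 windows, and in 7.81% and 1.79% of all promoters. GC content ranged between 58% in Tob2 and 75.3% in Tob1, beside a median of 52.7% over all promoters. The Tob2 start used by RefSeq lies inside the GENCODE gene, so its window is not the region upstream of the longest transcript.

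Within the CCR4-NOT complex, Cnot6 was higher in 3A and Cnot4 lower, and 9 of 11 subunits did not pass the test. These calls are 18.2% of the complex, beside 14.9% of all tested genes. In 5 subunits (45.5%) the groups did not overlap, beside 36.1% of all tested genes. Without Control 1, 6 were called higher and 3 lower, where 26.2% of all tested genes were higher and 25.8% lower. CNOT6 and its paralog CNOT6L are the nucleases of the CCR4 type. Cnot6 (chr11:49671503-49712723, minus strand) had 96.1, 149 and 159 CPM in 3A and 86.3, 58.9 and 67.8 CPM in Control. The lowest 3A library, 3A 1, lay just above the highest Control library, Control 1. The log2 fold change was 0.93 ± 0.24 (SE; 95% interval 0.36 to 1.49), 1.90-fold, with an adjusted p of 0.0442. With 1 library left out it lay between 0.80 and 1.13, with an adjusted p of 0.00567 without Control 1 and between 0.0311 and 0.170 otherwise. Cnot6l had 55.7, 79.2 and 82.9 CPM in 3A and 87.4, 55.4 and 55.3 CPM in Control, with overlapping groups and a log2 fold change of 0.14 (95% interval -0.44 to 0.72, adjusted p = 0.712).

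Because CNOT6 and CNOT6L take the same place in the complex, their levels were also set against each other within each library. Cnot6 made up 72.9%, 74.6% and 75.0% of the summed RPKM of both genes in 3A, and 60.6%, 62.4% and 65.7% in Control. The share was 74.2 ± 1.11% in 3A and 62.9 ± 2.55% in Control (SD, n = 3 each), a difference of 11.3 percentage points, and the groups did not overlap. A two-sided exact permutation test gave p = 0.1, the smallest that 3 libraries against 3 allow, and 0.5 after adjustment over the 5 paralog pairs compared. For the other 4 pairs the groups overlapped. Cnot7 made up 38.6 ± 1.43% of Cnot7 and Cnot8 in 3A and 37 ± 1.10% in Control, and Tob1 91.9 ± 0.221% of Tob1 and Tob2 in 3A and 90.7 ± 2.05% in Control. Dcp1a was 87.8 ± 5.14% of Dcp1a and Dcp1b in 3A and 91.4 ± 1.55% in Control. Upf3a took 68.3 ± 2.29% of Upf3a and Upf3b in 3A and 65.8 ± 12.7% in Control, with 79.4% in Control 1 and 54.3% in Control 3. Their exact permutation p-values were between 0.3 and 0.7.

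CNOT4 is a RING-type ubiquitin ligase that is loosely attached to the complex in mammals. Cnot4 (chr6:35022065-35133724, minus strand) had 29.7, 26.5 and 26.1 CPM in 3A and 35.7, 45.8 and 54.6 CPM in Control. All 3 Control libraries were above all 3A libraries, with Control 1 the closest to them. Its log2 fold change was -0.73 ± 0.19 (SE; 95% interval -1.17 to -0.28), adjusted p = 0.0437. Leaving out 1 library gave values between -0.86 and -0.57, with an adjusted p of 0.00255 without Control 1 and between 0.0800 and 0.183 otherwise.

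The other CCR4-NOT subunits that separated the groups were the CAF1-type nucleases and a partner of the scaffold. Cnot7, which encodes the deadenylase that BTG/Tob proteins bind, had 94.2, 112 and 119.7 CPM in 3A and 88.9, 80.4 and 78.1 CPM in Control, and the groups did not overlap. Its log2 fold change was 0.40 (95% interval 0.04 to 0.76, adjusted p = 0.115). Its annotation overlaps that of Zdhhc2. Cnot8, its paralog, had 72.7, 77.5 and 84.0 CPM in 3A and 72.2, 61.4 and 57.8 CPM in Control, with a log2 fold change of 0.29 (adjusted p = 0.211). Cnot10, which joins CNOT11 on the N-terminal part of CNOT1, had 70.9, 84.9 and 83.0 CPM in 3A and 65.2, 44.8 and 38.8 CPM in Control. It too was without overlap, with a log2 fold change of 0.68 and an adjusted p of 0.0778 (edgeR). DESeq2 called it, as did edgeR with offsets for exon length.

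Cnot1, the scaffold on which the complex is built, varied more within groups than between them. It had 73.8, 202 and 203 CPM in 3A and 224, 39.3 and 35.7 CPM in Control. The highest library was Control 1 and the lowest were the other Control libraries, while 3A 1 lay well under the other 3A libraries. The log2 fold change over 6 libraries was 0.68 with a 95% interval between -1.10 and 2.46 and an adjusted p of 0.541. Without Control 1 it was 2.10 with an adjusted p of 0.00484. The scaffold-bound subunits Cnot2, Cnot3, Cnot9 and Cnot11 had log2 fold changes of 0.13, -0.53, 0.50 and -0.37, with adjusted p between 0.149 and 0.622. Cnot9, whose protein docks the microRNA effector TNRC6, averaged 139 ± 8.06 CPM in 3A and 97.9 ± 34.4 CPM in Control (SD, n = 3 each), with 137 CPM in Control 1 and 82.4 and 74.1 CPM in the other Control libraries.

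**Figure D2:**
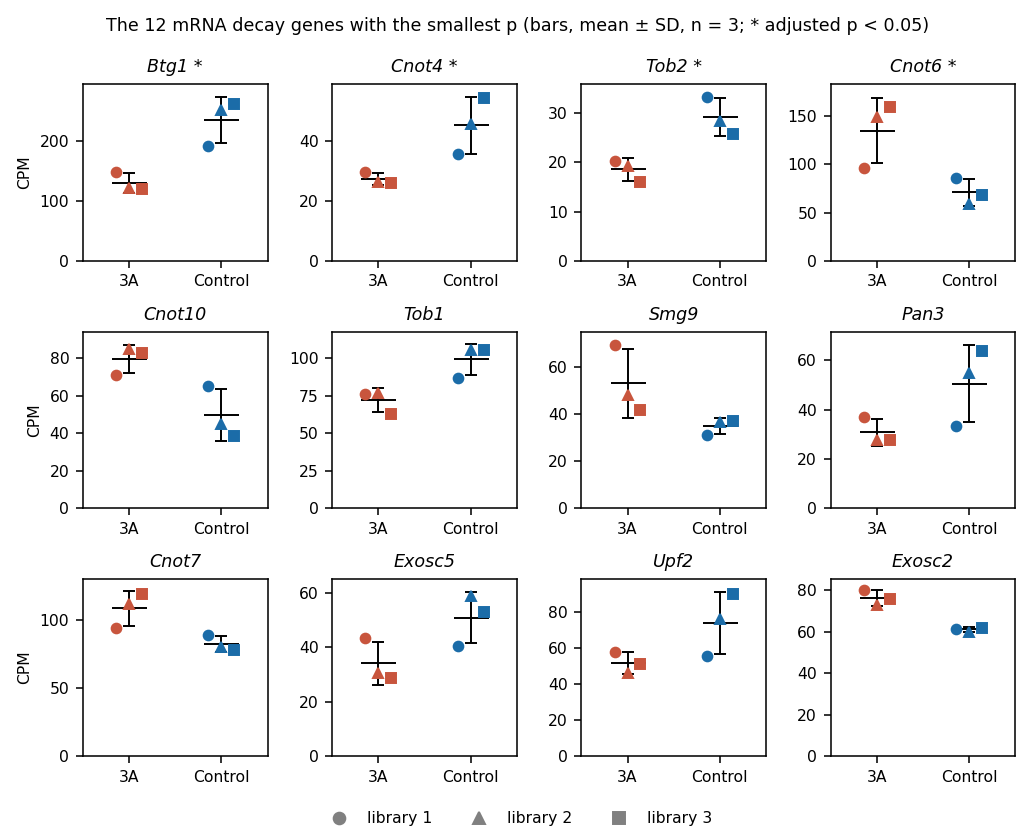
CPM on TMM-scaled library sizes in each library for the 12 decay genes of smallest p, with 3A left of Control; points are libraries and bars the mean with its SD (n = 3). Btg1, Cnot4 and Tob2 sit lower in all 3A libraries, Cnot6 sits higher in all of them, and the Control library nearest to 3A is Control 1 for Btg1, Cnot4 and Cnot6.

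The remaining deadenylases gave 0 calls by edgeR, DESeq2 and limma-voom, with 1 of 3 at an unadjusted p under 0.05. That gene was Pan3, the adaptor that tethers PAN2 to the tail. It had 37.1, 27.8 and 27.5 CPM in 3A and 33.2, 54.8 and 63.5 CPM in Control, so that Control 1 fell inside the 3A range. The log2 fold change was -0.71 (95% interval -1.33 to -0.09, adjusted p = 0.109). Pan2, the nuclease itself, had 11.9, 15.3 and 13.3 CPM in 3A and 19.1, 13.1 and 14.8 CPM in Control, a log2 fold change of -0.22. Parn, a separate poly(A)-specific nuclease, averaged 149.8 ± 36.5 CPM in 3A and 104 ± 37.4 CPM in Control (SD, n = 3 each), a log2 fold change of 0.52 with an adjusted p of 0.244. Without Control 1, Parn was called higher and Pan3 lower, beside 26.2% of all tested genes higher and 25.8% lower.

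All 7 genes of decapping and 5′ to 3′ decay had positive log2 fold changes, between 0.01 and 0.60 with a median of 0.24, and none was called. None reached an unadjusted p under 0.05 either, by edgeR, DESeq2 or limma-voom. The positive signs depended on the fit. Mitochondrial mRNA took 1.16% of counts in Control 1, near its share in 3A, but 4.16% and 4.69% in Control 2 and 3. A fit with this share therefore sets 3A mostly against Control 1, the library that stood apart, and is no separate check. Once edgeR also took in mitochondrial mRNA share, Dcp1b stayed positive (0.57). The other genes of this class were then negative, between -0.40 (Edc4) and -0.07 (Xrn1). Dcp2, the decapping nuclease, averaged 44.5 ± 13.1 CPM in 3A and 32.8 ± 15.4 CPM in Control (SD, n = 3 each), a log2 fold change of 0.44. Its activator Dcp1a averaged 22.6 ± 2.51 CPM in 3A and 22.4 ± 6.06 CPM in Control. Dcp1b averaged 2.39 ± 0.869 CPM in 3A and 1.58 ± 0.215 CPM in Control, and per kilobase of exon it was the lowest of the 7, at 0.377 RPKM in 3A and 0.249 RPKM in Control. Dcp1b was the only gene of the 7 whose groups did not overlap. The enhancers of decapping Edc3 and Edc4 had log2 fold changes of 0.17 and 0.38, the helicase gene Ddx6 0.02 and the 5′ exonuclease gene Xrn1 0.24. Edc3, Edc4 and Xrn1 overlap other annotated genes. Without Control 1, Dcp2, Edc3 and Edc4 were called higher, where 26.2% of all tested genes were. Control 1 was the highest of the 6 libraries for 4 of the 7 (57.1%). It was so for 21.6% of all tested genes and 32.5% of those over 5000 bases. Control 1 was above the mean of the other Control libraries for all 7, and for 7037 of 13704 tested genes. Among tested genes over 5000 bases, a length that all 7 exceed, it was so for 3655 of 5295.

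The Lsm1-7 ring gave 0 calls among 7 genes by edgeR, DESeq2 and limma-voom, and 0 at an unadjusted p under 0.05 by edgeR. Lsm1 is the subunit that marks the cytoplasmic ring, and the other 6 are shared with the nuclear ring on U6 RNA, in which Lsm8 takes its place. Lsm1 averaged 60.0 ± 7.90 CPM in 3A and 50.8 ± 19.3 CPM in Control (SD, n = 3 each), a log2 fold change of 0.24. Lsm7 had the lowest estimate of all 49 genes, -1.04 (95% interval -2.13 to 0.05, adjusted p = 0.161), with 35.5 ± 9.99 CPM in 3A and 73.2 ± 40.8 CPM in Control. Lsm2, Lsm3, Lsm4 and Lsm5 had log2 fold changes of -0.34, -0.55, -0.20 and -0.54. Once edgeR also took in mitochondrial mRNA share, which sets 3A mostly against Control 1, Lsm4 stayed negative (-0.13). Lsm2, Lsm3, Lsm5 and Lsm7 were then positive, between 0.19 (Lsm3) and 0.41 (Lsm2). Lsm6 had little spread within a group, at 30.8 ± 1.38 CPM in 3A and 25.2 ± 0.905 CPM in Control, with no overlap and a log2 fold change of 0.29 (adjusted p = 0.170). Control 1 was the lowest of the 6 libraries for 5 of the 7 genes (71.4%). It was so for 19.5% of all tested genes and 24.4% of those up to 5000 bases. Without Control 1, 4 ring genes (Lsm2, Lsm3, Lsm5 and Lsm7) were called lower and 0 higher, where 25.8% of all tested genes were called lower.

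Among the 10 exosome genes, 8 had negative log2 fold changes and 0 were called by edgeR, DESeq2 or limma-voom, with 1 higher and 2 lower at an unadjusted p under 0.05 by edgeR. These signs too depended on the fit. Once edgeR also took in mitochondrial mRNA share, which sets 3A mostly against Control 1, only Exosc5 (-0.27) and Exosc10 (-0.17) stayed negative. The other exosome genes were then positive, between 0.08 (Dis3) and 0.44 (Exosc3). The exosome is a barrel of ring subunits with a cap of S1-type proteins, and its nuclease activity comes from DIS3 and EXOSC10. Exosc5, a ring subunit, had 43.2, 30.4 and 28.7 CPM in 3A and 40.5, 58.9 and 53.0 CPM in Control, with Control 1 inside the 3A range and a log2 fold change of -0.57 (adjusted p = 0.120). Exosc2, a cap subunit, had 80.3, 72.7 and 75.9 CPM in 3A and 61.3, 59.9 and 62.1 CPM in Control. It was the only exosome gene without overlap, with a log2 fold change of 0.32 (95% interval 0.02 to 0.62, adjusted p = 0.130), and its Control libraries differed little from each other.

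The 2 nuclease genes differed in sign, Dis3 with a log2 fold change of 0.45 (adjusted p = 0.193) and Exosc10 with -0.40 (adjusted p = 0.142). Dis3 averaged 33.2 ± 3.64 CPM in 3A and 24.3 ± 6.69 CPM in Control, and Exosc10 79.1 ± 9.44 CPM in 3A and 105 ± 14.3 CPM in Control (SD, n = 3 each). The ring subunits Exosc4, Exosc7, Exosc8 and Exosc9 had log2 fold changes of -0.57, -0.26, -0.32 and -0.04, and the cap subunits Exosc1 and Exosc3 -0.31 and -0.08. Exosc9 overlaps the cyclin gene Ccna2. Exosc6, the ring subunit outside the 49 genes, was listed at 0 counts in all 6 libraries and was not tested. All 1326 bases of its exons overlap Aars on the same strand, so the 0 counts do not show that it is unexpressed. Without Control 1, Dis3 was called higher and 6 exosome genes lower, beside 26.2% of all tested genes higher and 25.8% lower.

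Nonsense-mediated decay genes gave 0 calls among 8 by edgeR, DESeq2 and limma-voom, with 1 higher and 1 lower at an unadjusted p under 0.05 by edgeR. Smg9, a regulatory partner of the SMG1 kinase that phosphorylates UPF1, had 69.6, 48.1 and 41.7 CPM in 3A and 31.3, 36.7 and 37.3 CPM in Control. The groups did not overlap, and the log2 fold change of 0.60 (95% interval 0.09 to 1.11) had an adjusted p of 0.105. Upf2, which links UPF1 to the exon junction, had 57.8, 46.0 and 50.9 CPM in 3A and 55.6, 76.1 and 90.1 CPM in Control, with Control 1 inside the 3A range and a log2 fold change of -0.52 (adjusted p = 0.128). Upf1, the central helicase, was nearly level, with 78.0 ± 16.6 CPM in 3A and 77.6 ± 10.8 CPM in Control (SD, n = 3 each; 95% interval of the log2 fold change -0.46 to 0.48).

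Upf3a and Upf3b, paralogs that bridge UPF2 and the exon junction complex, had log2 fold changes of -0.42 and -0.77 (adjusted p = 0.266 and 0.347). Upf3b averaged 21.5 ± 7.74 CPM in 3A and 36.7 ± 23.9 CPM in Control, with 11.4 CPM in Control 1 and 58.9 CPM in Control 3. Smg1 had a log2 fold change of -0.22, Smg5, an adaptor that binds phosphorylated UPF1, 0.37 and Smg6, the endonuclease, -0.12. Smg5 did not overlap between the groups, at 106 ± 8.07 CPM in 3A and 82.3 ± 11.8 CPM in Control. Without Control 1, Smg5 was called higher and Upf2, Upf3a and Upf3b lower, beside 26.2% of all tested genes higher and 25.8% lower.

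**Figure D3:**
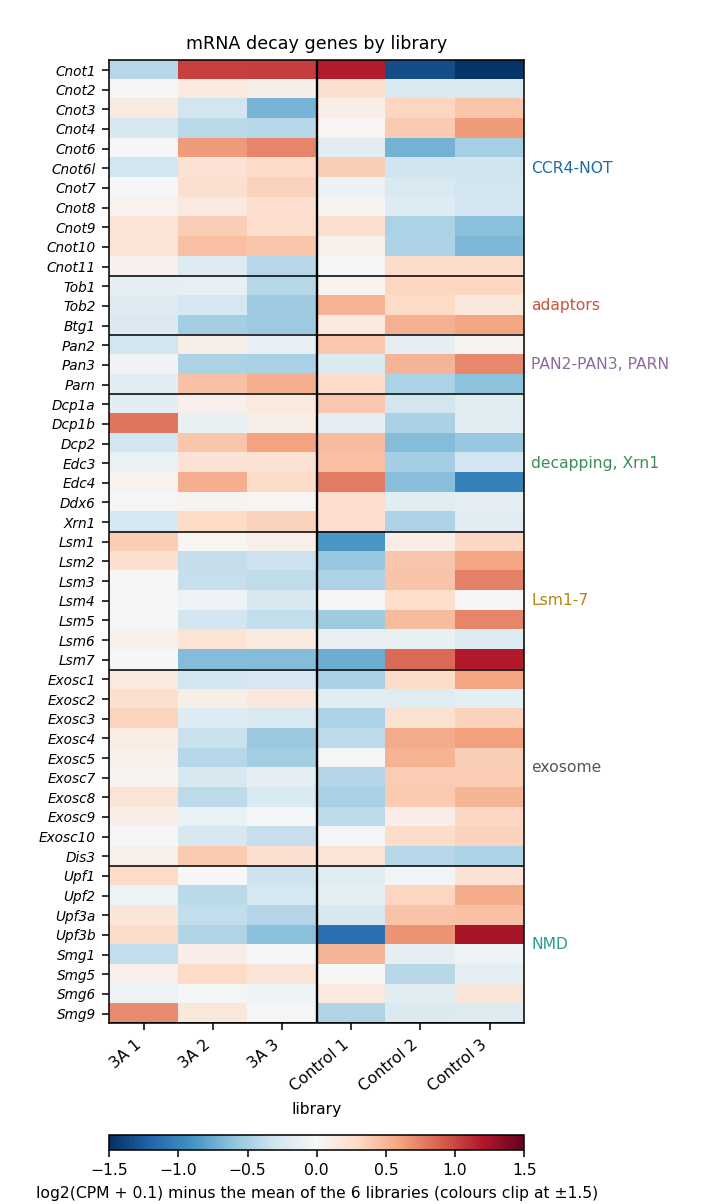
Heat map of log2(CPM + 0.1) of each decay gene minus its mean over the 6 libraries, with the 3A libraries on the left and Control on the right, ordered by role. Control 1 and 3A 1 stand out from the other libraries of their groups, with Cnot1 high in Control 1 and the Lsm genes mostly low there.

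How far Control 1 stood from the other Control libraries varied between roles and within them. On a log2 scale of CPM with a pseudocount of 0.1, Control 1 exceeded the mean of the other Control libraries by 2.58 for Cnot1 (5.97-fold), 1.59 for Edc4 and 1.08 for Dcp2, and was below it by values of -2.11 for Upf3b and -1.77 for Lsm7. The class medians were 0.63 for decapping and 5′ decay, 0.45 for PAN2-PAN3 and PARN and 0.44 for CCR4-NOT, against -1.08 for the Lsm ring, -0.68 for the exosome, -0.27 for the adaptors and -0.25 for nonsense-mediated decay. The roles overlapped, with CCR4-NOT genes between -0.49 and 2.58, exosome genes between -0.98 and 0.64 and nonsense-mediated decay genes between -2.11 and 0.62, and no difference between roles was tested. A deviation of at least 1 was seen in 9 of the 49 (18.4%), beside 19.4% of all tested genes. 3A 1 deviated from the other 3A libraries in the opposite sense for 46 of the 49 (93.9%), beside 77.0% of all tested genes.

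Deviations of Control 1 moved with the summed exon length of the gene. Across the 49 genes, which are not independent replicates and share their libraries, the log2 deviation and log2 exon length correlated at r = 0.53, beside 0.39 across 13680 tested genes with a length. The 27 decay genes over 5000 bases had a median deviation of 0.41 and the 22 others -0.47, and over all tested genes these medians were 0.29 and -0.19. With per-library offsets for exon length, an alternative chosen after seeing the data, 2 decay genes were called higher (Cnot6 and Cnot10) and 2 lower (Tob2 and Btg1). They are 8.16% of the decay genes, beside 19.6% of all tested genes called in that fit. Taking the mitochondrial mRNA share as a covariate left Tob2 and Btg1 called lower and Lsm1 called higher, and Cnot6 and Cnot4 were then not called. What set Control 1 apart was not tested.

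**Figure D4:**
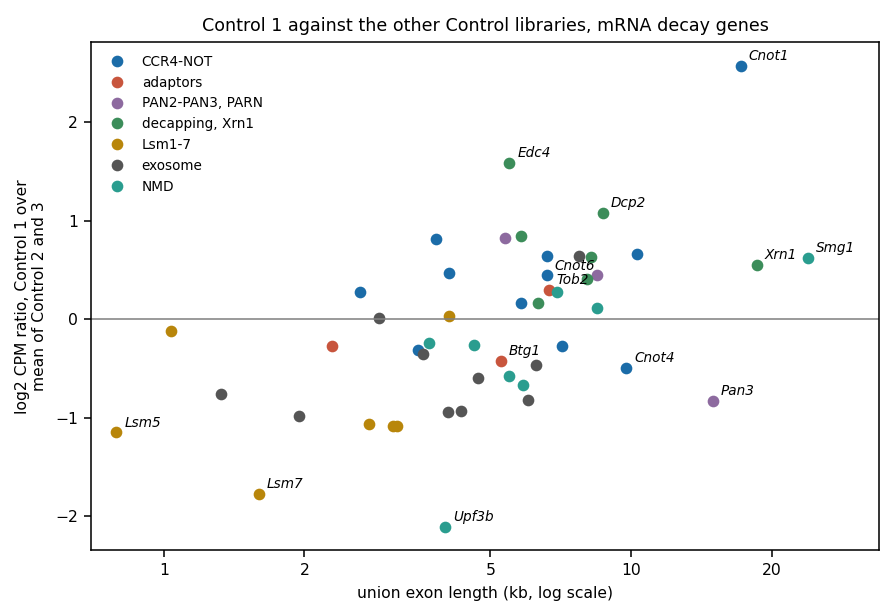
Log2 ratio of Control 1 to the mean of Control 2 and Control 3 (CPM with a pseudocount of 0.1) against summed exon length on a log axis for the 49 decay genes, coloured by role. Cnot1 lies highest at 2.58 and Upf3b lowest at -2.11, and genes over 5000 bases have a median of 0.41 against -0.47 for shorter ones.

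A wider list of 88 genes that act around these enzymes, of which 84 were tested, held 2 genes higher in 3A and 4 lower (7.14%, beside 14.9% of all tested genes), with a median log2 fold change of -0.06. The mRNAs lower in 3A were Dis3l2, Ago4, Zfp36 and Patl1. Dis3l2, a 3′ exonuclease that works outside the exosome on uridylated RNA, had 25, 24.3 and 23.0 CPM in 3A and 43.0, 42.8 and 46.2 CPM in Control, with hardly any spread within a group. Its log2 fold change was -0.87 ± 0.13 (SE), adjusted p = 0.00679. Ago4, an Argonaute of the microRNA pathway, had 0.63, 0.879 and 1.17 CPM in 3A and 3.96, 3.52 and 2.76 CPM in Control (log2 fold change -1.93, adjusted p = 0.00868). Zfp36 encodes tristetraprolin, which binds AU-rich elements and recruits CCR4-NOT. It had 32.8, 21.9 and 20.4 CPM in 3A and 38.4, 61.2 and 67.0 CPM in Control, a log2 fold change of -1.15 (adjusted p = 0.0345). Patl1, which joins the Lsm1-7 ring to the decapping enzymes, had 78.6, 67.7 and 67.1 CPM in 3A and 96.6, 101 and 120.5 CPM in Control (log2 fold change -0.57, adjusted p = 0.0484).

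The 2 genes of this wider list that were higher in 3A were Samd4 and Noct. Samd4, the mammalian counterpart of Drosophila Smaug, which recruits CCR4-NOT to mRNAs in the fly, had 11.8, 12.6 and 10.7 CPM in 3A and 7.58, 4.85 and 5.73 CPM in Control. Its log2 fold change was 0.95 (adjusted p = 0.0273). Noct encodes nocturnin, a member of the same nuclease fold family as CNOT6 that also acts on NADP(H), and had 20.6, 17.1 and 15.8 CPM in 3A and 11.4, 10.5 and 10.3 CPM in Control, a log2 fold change of 0.73 (adjusted p = 0.0283). Neither gene overlapped between the groups. Without Control 1 the wider list held 17 genes higher and 22 lower, in the fit that called 52.0% of all tested genes.

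RNAs known as targets of the pathway were counted beside it. Of 16 RNAs known to be sensitive to nonsense-mediated decay, edgeR called 0 higher and 2 (12.5%) lower in 3A. It called 14.9% of all tested genes, 7.39% lower. At an unadjusted p under 0.05 it had 0 higher and 7 lower, beside 2485 lower of 13704 tested genes. DESeq2 called 0 and 4, beside 19.3% of all tested genes, and limma-voom 0 and 1, beside 15.2%. When edgeR also fitted each library's mitochondrial mRNA share, the balance turned, to 3 higher and 1 lower, beside 18.4% of all tested genes. The direction of this list therefore depends on that setting, in which 3A is set mostly against Control 1. With 1 library left out other than Control 1, 0 were higher and 0 or 1 lower, in fits that called 4.72% to 9.18% of all tested genes. Their median log2 fold change was -0.55. Of the called genes, Gadd45b, a stress-response gene, had 92.8, 52.8 and 50.6 CPM in 3A and 94.4, 205 and 265 CPM in Control (log2 fold change -1.52, adjusted p = 0.0487). Its Control 1 value lay next to that of 3A 1. Ddit3, which encodes the stress transcription factor CHOP, had 71.5, 53.8 and 62.0 CPM in 3A and 121, 194 and 208 CPM in Control (log2 fold change -1.48, adjusted p = 0.00814). Of 26 tested mRNAs with known AU-rich elements, 11 were called higher and 3 lower (53.8%, beside 14.9% of all tested genes), with a median of 0.43. Many of these genes encode cytokines, proteases and growth regulators, and the list was drawn up with results of these data known. Those lower were Ptgs2, Ccl2 and Zfp36, of which Zfp36 also belongs to the wider list. Ptgs2, an inducible cyclooxygenase, had 34.6, 35.5 and 44.7 CPM in 3A and 88.3, 109 and 119 CPM in Control (log2 fold change -1.46, adjusted p = 0.00331). Ccl2, a chemokine named here after its values were seen, had a log2 fold change of -1.05 (adjusted p = 0.00580). Among the higher ones of smallest p, the urokinase gene Plau had 1328, 1220.4 and 1475 CPM in 3A and 302, 346 and 379 CPM in Control, and the interleukin gene Il1a 2131, 1616 and 2105 CPM in 3A and 384, 452 and 542 CPM in Control. Their log2 fold changes were 1.97 and 2.09 (adjusted p = 0.000846 and 0.00136). Il1b, another interleukin gene, had 1.58, 2.03 and 1.75 CPM in 3A and 0.222, 0.0684 and 0.0425 CPM in Control, where its libraries held 7, 2 and 1 counts (log2 fold change 3.90, adjusted p = 0.00411). With a library other than Control 1 left out, 6 to 8 of this list were higher and 2 or 3 lower, beside 4.72% to 9.18% of all tested genes called. Without Control 1, where 52.0% of all tested genes were called, the counts were 2 higher and 9 lower for the first list and 14 higher and 4 lower for the second. Transcript levels alone do not separate synthesis from decay, and no decay rate was measured here.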

How the data were processed

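What the authors deposited is a table of raw counts of reads per gene, with no normalization, for 6 libraries. Trim Galore, featureCounts, edgeR and limma appear in the submitters' processing notes without versions or roles, as do the mouse build mm10 and a human build under both its names, GRCh38 and hg38. The labels name no aligner, annotation release or strand setting, and none is given in the sources used here. How reads of overlapping or near-identical genes were divided is therefore unknown. Symbols, positions and exon lengths came from GENCODE M21 (GRCm38). Of the IDs 49056 matched and 259 did not, and those held at most 0.0123% of a library's counts.

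The test was edgeR 4.0.16 under R 4.3.3 on the counts (filterByExpr, TMM, glmQLFit and glmQLFTest, group as the only term), with Benjamini-Hochberg adjustment over the 13704 tested genes and a threshold of 0.05. The biological coefficient of variation was 0.264. Each standard error is the size of the log2 fold change over the square root of F. RPKM divides CPM by summed exon length. No replicate pair agreed within sampling noise (chi-square per degree of freedom 15.7 to 311). Simulated data were used to check the code. Whether the fits suit the spread between these libraries was not tested.

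The members and lists were chosen with earlier results of these data known. Values per library are given for the 4 called members, for those of smallest p up to 12 genes, for paralogs or partners named beside them, and for called genes of the wider list (at most 8) and of each target list (at most 4). Alternatives were other scalings and filters, DESeq2 1.42.0, limma-voom (limma 3.58.1), robust fitting, the replicate number as a block, the mitochondrial share as a covariate, a threshold of 0.01 and each library left out in turn. Exon length offsets were added after seeing the data.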

Additional observations from a re-analysis of the deposited data

How the results depend on the processing

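Over the 49 decay genes, the count higher in 3A (1) became 0 with scaling by library size alone (edgeR, 5 at an unadjusted p under 0.05), 2 with DESeq2, 2 with exon length offsets and 0 at an adjusted p under 0.01. The count lower (3) became 2 with scaling by library size alone, where Tob2 was not called, 1 with no low-count filter and 0 at 0.01. With 1 library left out, the counts ranged from 0 to 12 higher and from 0 to 20 lower. For all tested genes, there were 1031 higher and 1013 lower. At an adjusted p under 0.01 the counts were 364 higher and 352 lower, lower calls by DESeq2 were 1745, and with 1 library left out the ranges were 346 to 3751 and 318 to 3690. For the wider list, 2 higher became 4 with no filter, 5 with DESeq2 and 0 at 0.01, 4 lower became 8 with DESeq2 and 2 at 0.01, and the ranges with 1 library left out were 0 to 17 and 0 to 22. Scaling by relative log expression or upper quartile, a minimum of 1 CPM in 3 libraries, limma-voom and robust fitting left the decay counts at 1 and 3. No called member changed sign under any alternative, and 25 members that were not called did so at least once (49 of 833 values). For the called members, whose groups did not overlap, leaving out 1 library could hardly turn the sign. The cause of these changes was not tested.

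Same-numbered libraries deviated from their group means in opposite senses (r = -0.66, -0.42 and -0.37 over tested genes). Some differently numbered libraries did so too, such as 3A 2 and Control 3 (r = -0.42). Others, such as 3A 1 and Control 3, deviated in the same sense (r = 0.54). With 3 libraries a group, the outlying Control 1 and 3A 1 weigh on every such r. The check therefore cannot decide whether the replicate numbers pair the libraries. With the replicate number as a block, 0 decay genes were called higher and 0 lower (edgeR; 2 and 3 at an unadjusted p under 0.05), 0 and 0 of the wider list, and 142 and 146 of all genes.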
